A study of Mus musculus with 12 samples.

Results

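Glycine and serine are made and broken down by a small set of enzymes, and 9 of these were followed here in the brains of mice with a deletion in the transporter gene Slc6a20a. The enzymes were taken by gene symbol, and the rule uses no measured value. They were Phgdh, Psat1, Psph, Shmt1, Shmt2, Srr, Gldc, Amt and Gcsh, and 9 of the 9 were found among the 19775 genes of the deposited table.

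The data were poly-A RNA sequencing of whole brains from 12 male C57BL/6N mice at about postnatal day 120. There were 4 wild-type (WT) mice, 4 heterozygous Slc6a20a+/- (HT) mice, which have lost 1 copy of exon 3 of Slc6a20a, and 4 homozygous Slc6a20a-/- (HM) mice, which have lost both copies. The mice came from crosses of heterozygous parents, and no Cre driver or restriction to a cell type is stated for the deletion. Values are normalized counts, which are estimated reads per gene scaled to make the mice comparable, and they sum to between 33284951 and 33748623 per mouse. Each column is 1 animal, and a p-value therefore measures the spread between animals.

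L-serine is made in the brain from 3-phosphoglycerate, an intermediate of glycolysis. Phgdh oxidizes it, Psat1 adds an amino group from glutamate and Psph removes the phosphate, and this route is known to run mainly in astrocytes. Serine hydroxymethyltransferase, encoded by Shmt1 in the cytosol and by Shmt2 in mitochondria, exchanges serine and glycine and passes a carbon unit to folate. Serine racemase (Srr) turns L-serine into D-serine, which with glycine is a co-agonist of NMDA receptors. The mitochondrial glycine cleavage system, known to be strong in astrocytes, breaks glycine down. Its P protein is encoded by Gldc, its T protein by Amt, its H protein by Gcsh and its L protein by Dld, which other enzyme complexes share. Slc6a20a itself carries proline and glycine across the cell membrane. The comparisons ask whether the transcripts of enzymes that set glycine and serine levels differ when that transporter is reduced or lost.

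The targeted gene followed the labels. Slc6a20a stood at 704, 584, 678 and 750 normalized counts in the WT mice, at 332, 366, 372 and 310 in the HT mice and at 69.0, 55.6, 76.5 and 57.1 in the HM mice. The genotypes did not overlap, and the HT and HM means were 50.8% and 9.50% of the WT mean. In limma with Benjamini-Hochberg (BH) adjustment over all genes tested, Slc6a20a was 0.97 lower on the log2 scale in HT (adjusted p = 9.38e-04) and 3.38 lower in HM (adjusted p = 1.75e-08). The HT call was lost in a fit without a trend in the variance prior. Cell type markers were present as a whole brain requires, with 10 of 10 neuronal, 10 of 10 astrocyte, 8 of 8 oligodendrocyte and 8 of 8 microglial markers measured in every genotype. Markers of blood and choroid plexus varied most between mice, with summed levels of 5859 to 29023 and 9893 to 20287 normalized counts. Marker lists also differed between genotypes. At an unadjusted limma p under 0.05, 5 of 5 blood markers were lower in HT than in WT (median log2 change -0.83). By the same measure 3 of 8 choroid plexus markers were lower in HM (median -0.43, with 8 of 8 below 0) and 6 of 9 olfactory bulb markers higher in HM (median 0.63). Over all genes tested the share was 6.42% in HT and 6.99% in HM against WT, in either direction. In HM against HT, 4 of 5 blood and 7 of 9 olfactory bulb markers were higher. There 1 olfactory bulb and 3 of 8 microglial markers were lower, against 3.74% of all genes. In HM against WT, 0 of 8 microglial and 10 of 10 neuronal markers had a log2 change above 0. None of these markers passed after BH adjustment, and their part in the enzyme values below was not tested.

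None of the 9 enzymes passed the adjusted threshold of 0.05 in any of the 3 comparisons (limma with BH adjustment over all genes tested), and most estimates of the difference from WT were under 0.1 in size on the log2 scale. The adjusted test called 0 of 9 enzymes in HT against WT, where it called 0.00555% of the genes tested, 0 of 9 in HM against WT, where it called 0.0111%, and 0 of 9 in HM against HT, where it called 0.00556%. At an unadjusted limma p under 0.05, 3 of 9 enzymes (Shmt1, Gldc and Srr) were higher in HT than in WT, against 6.42% of all genes tested in either direction. By the same measure 0 of 9 passed in HM against WT, against 6.99% of all genes, and 1 of 9 (Shmt1) was lower in HM than in HT, against 3.74%. The values of the 4 mice of each genotype did not overlap for 1 of 9 enzymes (Gldc) in HT against WT, against 3.73% of all genes. They overlapped for 9 of 9 in HM against WT and in HM against HT, where 4.22% and 2.38% of all genes did not overlap. HT and HM were compared with the same 4 WT mice, so these comparisons are not independent of each other.

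**Figure D1:**
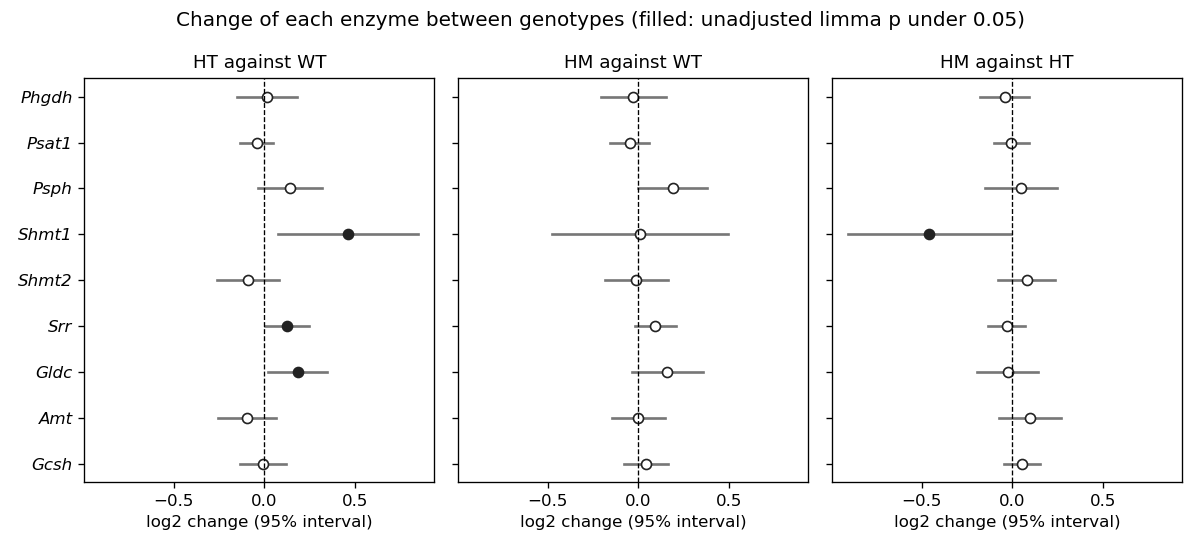
Log2 change of each enzyme (horizontal axis) for HT against WT, HM against WT and HM against HT, with the point at the limma estimate and the line at its 95% interval. Filled points have an unadjusted limma p under 0.05, which holds for Shmt1, Srr and Gldc in HT against WT and for Shmt1 in HM against HT, and the other intervals include 0.

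The median absolute log2 change of the 9 enzymes was 0.097 in HT against WT, 0.044 in HM against WT and 0.048 in HM against HT. Over all genes tested the same median was 0.067, 0.070 and 0.052, and over genes with a mean of at least 100, as 8 of the 9 enzymes have, it was 0.053, 0.054 and 0.038. The enzymes' median was thus above that of other genes in HT against WT and below it in HM against WT, and no test of this was run. Signed medians were 0.014, 0.0069 and -0.0042 for the enzymes and within 0.001 of 0 for all genes. The enzymes split into 5 higher and 4 lower in HT against WT and into 6 higher and 3 lower in HM against WT.

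The promoters of Srr and Gldc are shown because these 2 enzymes and Shmt1 had an unadjusted p under 0.05 in HT, and Srr and Gldc are the better measured of the 3. The sequences are from RefSeq. Each stretch is the 100 bases directly before the annotated start in GRCm38.p6, written 5′ to 3′ on the minus strand, on which both genes lie. The start used for the Gldc stretch lies upstream of the gene position given further on, which ends at 30175429, so the 2 do not adjoin. Capitals mark matches to CCAAT or GGGCGG on either strand, so that CCGCCC and ATTGG are matches on the opposite strand.
Srr, chr11:74925949-74926048: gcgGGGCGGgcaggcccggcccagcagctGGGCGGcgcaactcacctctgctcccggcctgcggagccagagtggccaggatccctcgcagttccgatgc
Gldc, chr19:30175442-30175541: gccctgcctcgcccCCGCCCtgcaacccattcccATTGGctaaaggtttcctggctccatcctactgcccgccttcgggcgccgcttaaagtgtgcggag

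Both stretches are rich in G and C, which make up 75% of the Srr stretch and 65% of the Gldc stretch. The Srr stretch holds 2 matches to GGGCGG, the letters of a GC box, and the Gldc stretch holds 1 such match and 1 match to CCAAT. Windows of 250 bases before to 50 bases after the start were searched for all annotated starts. CCAAT was found in 7 of the 10 windows of the 9 enzymes (for Amt, Gcsh, Gldc, Phgdh, Psat1, Psph and Shmt1), and 37.4% of all 32851 windows held it. GGGCGG was found in 7 of the 10 windows (for Amt, Gcsh, Gldc, Psat1, Psph, Shmt1 and Srr), and 35.7% of all windows held it. These differences in share were not tested. The composite element TGATGNAA, which factors of the amino acid response bind, was found in 0 of the 10 windows of the enzymes, 1 of which has more than 1 annotated start, and in 3.97% of all windows. These are matches of letters and no measure of binding.

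Per length of transcript, the enzymes spanned a wide range of levels in the WT brain. Psat1 was the most abundant at 1417 ± 55.4 normalized counts per kb (SD, n = 4), and Dld, the shared L protein, stood at 1333 ± 47.9. The ranges of those 2 overlapped. Phgdh followed at 1090 ± 126 normalized counts per kb, Gcsh at 813 ± 56.6, Srr at 686 ± 43.2 and Amt at 307 ± 11.9, with no overlap between neighbours in this order among the WT mice. Shmt2 at 262 ± 23.6 and Psph at 238 ± 14.8 normalized counts per kb overlapped, and Gldc at 168 ± 15.6 lay below both. Shmt1 was by far the lowest at 27.0 ± 5.80 normalized counts per kb. The mitochondrial transferase transcript was thus higher than the cytosolic one, and within the glycine cleavage system the H and L protein transcripts were higher than those of the T and P proteins.

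**Figure D2:**
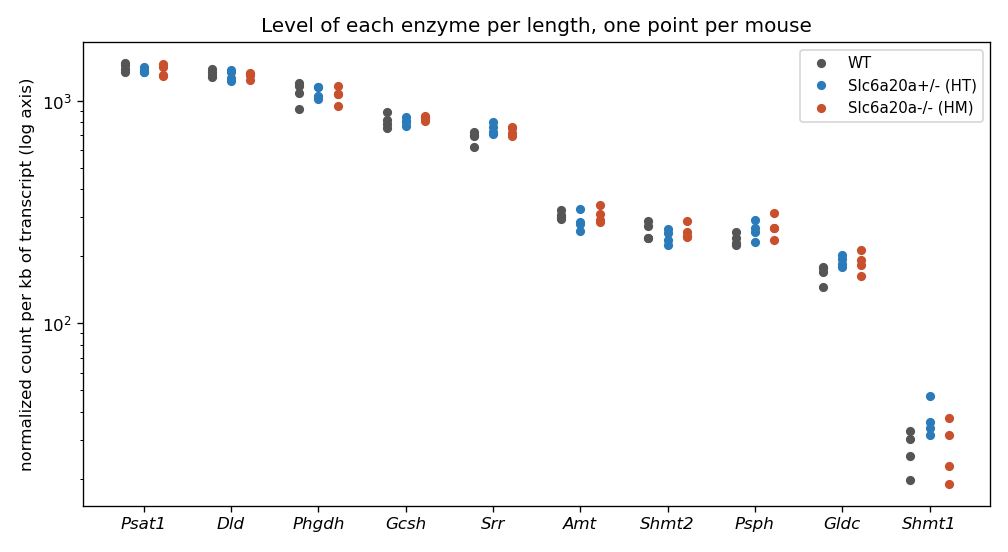
Level of the 9 enzymes and Dld in normalized counts per kb of transcript (log axis), 1 point per mouse, with WT, HT and HM side by side for each gene. The order from Psat1 at 1296 to 1474 down to Shmt1 at 18.8 to 47.1 was the same in the 3 genotypes apart from Shmt2 and Psph, which changed places in HT and HM.

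The length used sets part of this order. With the union of all exons in place of the main transcript, Dld ranked 1 and Psat1 2, Gldc ranked 8 and Psph 9, and Shmt1 stayed at 10. Among all genes of the table, ranked by mean normalized count without regard to length, Psat1 lay above 89.3% and Shmt1 above 32.1%.

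The serine synthesis route began with Phgdh, 3-phosphoglycerate dehydrogenase, on chromosome 3 from 98313170 to 98339990 (GRCm38, minus strand). Phgdh stood at 2273, 1735, 2047 and 2202 normalized counts in the WT mice, at 2187, 1999, 2189 and 1932 in the HT mice and at 1801, 2028, 2209 and 2039 in the HM mice. The widest spread was within WT, whose replicates 2 and 1 held the lowest and the highest value of all 12 mice. The limma 95% interval of the change ran from -9.97% to 13.3% in HT and from -13.3% to 10.96% in HM. Phgdh has 9 processed pseudogene copies at least 95% identical over 277 to 1608 aligned bases among annotated transcripts. None of the 9 copies was measured, and whether reads were shared with them was not tested.

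Psat1, phosphoserine aminotransferase, lies on chromosome 19 from 15904678 to 15947337 (minus strand). It stood at 3791, 3532, 3652 and 3857 normalized counts in WT, at 3617, 3733, 3517 and 3533 in HT and at 3391, 3425, 3845 and 3713 in HM. The genotypes overlapped, and the 2 lowest of the 12 mice were HM replicates 1 and 2. The coefficient of variation of Psat1 between mice was 3.91% in WT, 2.75% in HT and 6.16% in HM. Its limma 95% interval ran from -8.84% to 3.47% in HT and from -10.1% to 4.32% in HM.

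Psph, phosphoserine phosphatase and the last step of the route, lies on chromosome 5 from 129765558 to 129787449 (minus strand). It stood at 417, 397, 388 and 446 normalized counts in WT, at 505, 466, 404 and 447 in HT and at 412, 466, 541 and 467 in HM. In each mutant genotype 3 of 4 mice lay above the highest WT mouse, and the highest were HM replicate 3 and HT replicate 1. The log2 change of Psph was 0.14 ± 0.08 (SE) in HT, with an adjusted p of 0.825, and 0.19 ± 0.09 in HM, with an adjusted p of 0.713 (limma, BH). The unadjusted limma p in HM was 0.0502 and the 95% interval ran from -0.011% to 30.0%, so that the call at 0.05 depended on small choices of the fit. The two-sided exact permutation test gave p = 0.0857 for HM. The first 452 bases of Psph overlap Cct6a, a chaperonin subunit gene on the other strand with a mean of 3571 normalized counts. The library kit does not mark strand, so reads from that stretch cannot be assigned by strand, and its part in the values was not tested.

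**Figure D3:**
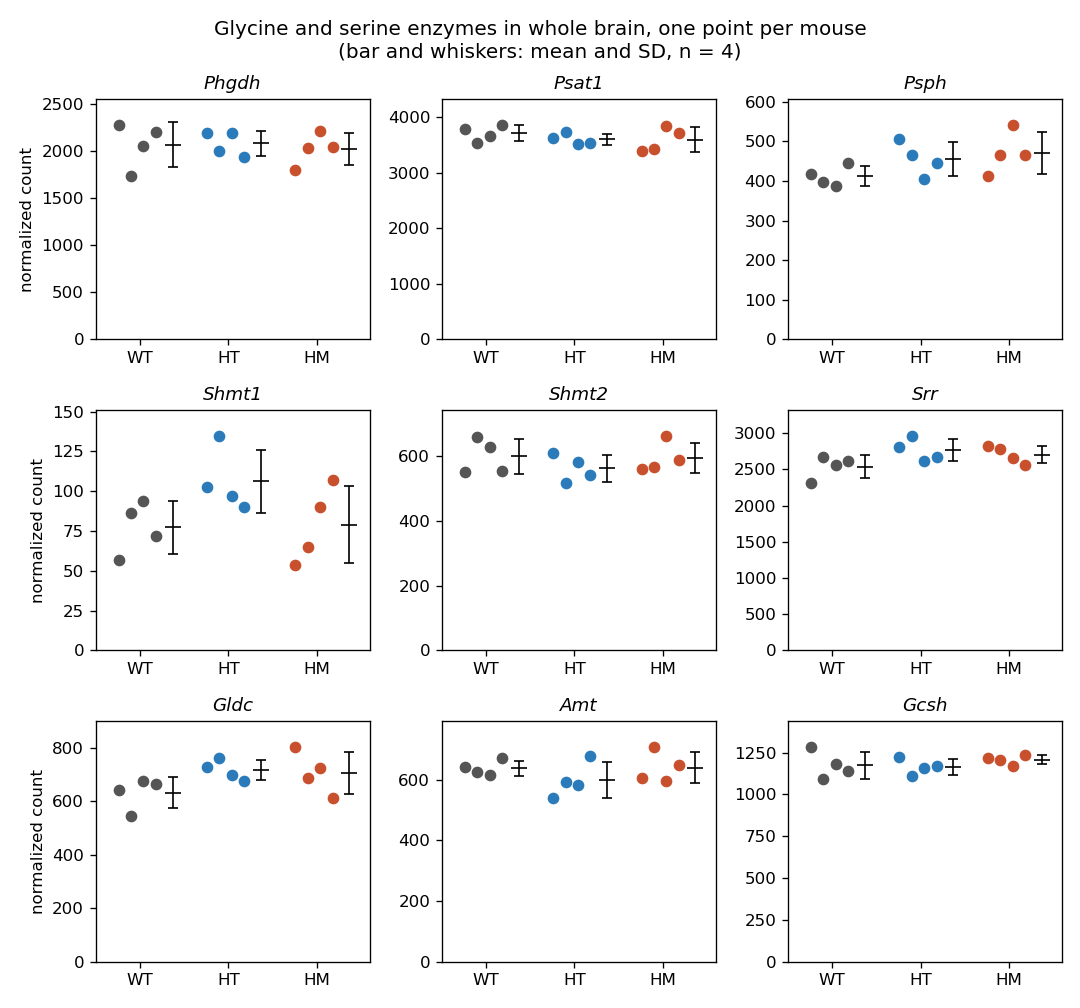
Normalized counts of each enzyme (vertical axis, from 0) in WT, HT and HM, 1 point per mouse with the mean and SD (n = 4) beside it. Gldc in HT lies at 675 to 762, with its lowest mouse just above the highest WT mouse, and the other enzymes overlap between genotypes.

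Shmt1, the cytosolic serine hydroxymethyltransferase, lies on chromosome 11 from 60788104 to 60811718 (minus strand). It stood at 56.6, 86.5, 94.1 and 72.0 normalized counts in WT, at 103, 135, 97.1 and 90.3 in HT and at 53.9, 64.9, 90.1 and 107 in HM. The 3 highest HT mice lay above every WT mouse and HT replicate 4 did not. The HM mice ran from 53.9, below every WT mouse, to 107, above every WT mouse. Its log2 change was 0.46 ± 0.18 (SE) in HT against WT, and its limma p was 0.0222 unadjusted and 0.770 after BH adjustment. The exact permutation test gave p = 0.0571 for that comparison. In HM against WT the log2 change was 0.01 ± 0.22, with a 95% interval from -28.2% to 40.7%, which includes the HT estimate of 37.9%. HM lay 0.46 ± 0.21 below HT on the log2 scale, with a limma p of 0.0474 unadjusted and 1.00 after BH adjustment, and the exact permutation test gave p = 0.171. That difference was no longer under 0.05 unadjusted without any 1 of HT replicates 1, 2 and 3 or HM replicates 1 and 2, with the replicate block, or without a trend in the variance prior. With a block for the animal number, which leaves few mice to set the change, it was -0.13 and also not under 0.05, and the HM against WT change was 0.48 with an adjusted p of 0.637 (limma, BH). The HT change was no longer under 0.05 unadjusted without HT replicate 2, the highest mouse, or without WT replicate 1, the lowest WT mouse, nor with the animal-number block, where it was 0.29. Shmt1 had the lowest level and the largest spread between mice, with a coefficient of variation of 18.5% to 30.5%. Its last 184 bases overlap Smcr8 on the other strand, which was measured at a mean of 1698 normalized counts.

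Shmt2, the mitochondrial enzyme, lies on chromosome 10 from 127517123 to 127522444 (minus strand). It stood at 552, 660, 628 and 555 normalized counts in WT, at 608, 516, 581 and 542 in HT and at 561, 565, 662 and 587 in HM. The genotypes overlapped, with HT replicates 2 and 4 below every WT mouse. The limma 95% interval ran from -16.6% to 5.65% in HT and from -12.0% to 11.8% in HM. The signs of the HT estimates for Shmt1 and Shmt2 were opposite, and a test of the difference between the 2 genes was not run.

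Srr, serine racemase, lies on chromosome 11 from 74906359 to 74925948 (minus strand), directly behind the promoter stretch printed above. It stood at 2306, 2668, 2563 and 2609 normalized counts in WT, at 2810, 2960, 2615 and 2671 in HT and at 2817, 2784, 2657 and 2560 in HM. WT replicate 1 was the lowest of the 12 mice, and 3 of 4 HT mice and 2 of 4 HM mice lay above the highest WT mouse. The log2 change was 0.12 ± 0.06 (SE) in HT, with a limma p of 0.0431 unadjusted and 0.770 after BH adjustment. In HM it was 0.09 ± 0.05, with an adjusted p of 0.751 (limma, BH). The HT change was no longer under 0.05 unadjusted without WT replicate 1, WT replicate 3, HT replicate 1 or HT replicate 2, each left out alone. It was also not under 0.05 after quantile normalization, without a trend in the variance prior, or with the animal-number block, where it was 0.064. Srr is known mainly from neurons, and the summed level of 10 neuronal markers was 301101 to 316405 in WT, 312418 to 325763 in HT and 315516 to 320544 in HM. The part of neuronal RNA in the Srr values was not tested, and in whole tissue fewer cells of a type and less RNA per cell cannot be told apart. The end of Srr overlaps the ribosome assembly gene Tsr1 on the other strand over 2984 bp, of which 621 transcript bases are shared. Its first 126 bases overlap Smg6 on the other strand, which was measured at a mean of 1677 normalized counts. That overlap runs up to the Srr start, at the edge of the printed stretch, and whether the stretch lies within Smg6 was not examined.

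Gldc, the P protein that decarboxylates glycine, lies on chromosome 19 from 30098447 to 30175429 (minus strand), just behind its promoter stretch above. It stood at 640, 547, 675 and 665 normalized counts in WT, at 729, 762, 697 and 675 in HT and at 803, 686, 724 and 612 in HM. All 4 HT mice lay above all 4 WT mice, but the lowest HT value of 675.47 exceeded the highest WT value of 675.41 by far less than the spread within either genotype. In HM, 3 of 4 mice lay above every WT mouse, and HM replicate 4 lay within the WT range. The log2 change was 0.18 ± 0.08 (SE) in HT, with a limma p of 0.0296 unadjusted and 0.770 after BH adjustment. In HM it was 0.16 ± 0.09, with an adjusted p of 0.753 (limma, BH). The exact permutation test gave p = 0.0286 for HT, the smallest that 4 mice against 4 can give, and p = 0.229 for HM. After upper-quartile scaling the HT and WT mice overlapped and the exact permutation p was at least 0.0571. Without WT replicate 2, which held the lowest Gldc value, the HT change was no longer under 0.05 unadjusted, and the same was true without HT replicate 1 and without HT replicate 2.

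Gldc is known from astrocytes, and the astrocyte markers are given beside it. The summed level of 10 astrocyte markers was 137469, 138189, 148603 and 150347 normalized counts in WT, 148352 to 153185 in HT and 148269 to 151651 in HM. WT replicates 1 and 2 were the lowest of the 12 mice for these markers. Within HM, replicate 4 was highest in the markers and lowest in Gldc, and replicate 1 was lowest in the markers and highest in Gldc. HM replicate 3 lay above HM replicate 2 in both. Of the 10, Aldoc and Slc7a10 also stand in the glycolysis and transporter lists described further on. Of the 10 markers, 8 had a higher mean in HT than in WT and 1 had an unadjusted limma p under 0.05, against 6.42% of all genes tested. Their part in the Gldc values was not tested.

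Amt, the aminomethyltransferase that forms the T protein, lies on chromosome 9 from 108296853 to 108302302 (plus strand), 15.3 Mb from Slc6a20a on the same chromosome. It stood at 640, 626, 615 and 672 normalized counts in WT, at 540, 592, 583 and 680 in HT and at 606, 708, 597 and 648 in HM. In HT, 3 mice lay below every WT mouse and replicate 4 was above every WT mouse. The limma 95% interval ran from -16.3% to 4.42% in HT and from -9.68% to 10.8% in HM. Without HT replicate 4, the unadjusted limma p of the HT decrease in means was under 0.05. Amt shares stretches of 119 to 155 aligned bases, at least 95% identical, with annotated transcripts of other genes, most of them measured. Among them were Npepps at a mean of 5483 normalized counts and Nfat5 at 4812. Whether reads were shared with these genes was not tested.

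Gcsh, the lipoyl-carrying H protein, lies on chromosome 8 from 116981810 to 116993537 (minus strand). It stood at 1284, 1093, 1181 and 1138 normalized counts in WT, at 1222, 1110, 1161 and 1169 in HT and at 1217, 1207, 1172 and 1236 in HM. All 8 mutant mice lay within the WT range. The HM mice were the closest to one another of any genotype and enzyme, with a coefficient of variation of 2.22%. The limma 95% interval ran from -8.98% to 8.57% in HT and from -5.25% to 12.2% in HM.

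Dld, the L protein, completed the cleavage system. It stood at 3537, 3261, 3439 and 3328 normalized counts in WT, at 3505, 3443, 3134 and 3240 in HT and at 3334, 3154, 3401 and 3369 in HM. The genotypes overlapped, and the limma 95% interval ran from -8.54% to 5.33% in HT and from -8.26% to 4.13% in HM.

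Whether enzymes of one route varied together was examined over the 12 mice for 7 pairs set by pathway step. Phgdh and Psat1 had the highest coefficient, with Pearson r = 0.634 (permutation p = 0.0274, BH-adjusted p = 0.192) and Spearman rho = 0.650 (permutation p = 0.0261, BH-adjusted p = 0.183). None of the 7 pairs passed after adjustment. With WT replicate 2 and HM replicate 1 left out, the mice with the most extreme Phgdh values, r for that pair was 0.487 (permutation p = 0.152), so the relation rests in part on those mice. With values centred within genotype, the pair of Psat1 and Psph had r = 0.756 (permutation p = 0.00954, adjusted p = 0.0668) and rho = 0.832 (permutation p = 0.00256, adjusted p = 0.0179), and Phgdh and Psat1 had r = 0.670. Over all 12 mice without centring the pair of Psat1 and Psph had r = 0.380 (permutation p = 0.2198, adjusted p = 0.385) and rho = 0.322 (permutation p = 0.309). Within the cleavage system, Gldc and Amt had r = -0.391 (permutation p = 0.208), and Gldc and Gcsh had r = 0.152 (permutation p = 0.642). The 2 hydroxymethyltransferases had r = 0.0932 (permutation p = 0.774).

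For each enzyme, the gene whose log2 values were most alike over the 12 mice was sought among 13126 genes with a mean of at least 100, as a description without a test. These genes were Azin1 for Shmt1 (r = 0.912), Ipo4 for Shmt2 (r = 0.904), Prkci for Gldc (r = 0.883) and Cops7b for Amt (r = 0.836). They were Anp32b for Gcsh (r = 0.926), 2900079G21Rik for Phgdh (r = 0.884) and Golga7 for Psat1 (r = 0.890). For Psph and Srr they were Pcdhb19 (r = 0.859) and Bend4 (r = 0.898). No enzyme of the 9 was the nearest gene of another.

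Genes of the surrounding pathways showed no called change either. Of 6 lists, covering lipoylation with Dld (10 genes tested), folate one-carbon metabolism (17), other glycine and serine enzymes (23 in HT and 24 in HM against WT), glycolysis (14), the amino acid response (18) and glycine and serine transporters (16), limma with BH adjustment called 0 genes in either direction in any comparison. At an unadjusted limma p under 0.05, 2 of 98 list genes were higher and 0 lower in HT, and 7 of 99 were higher and 2 lower in HM, which is 2.04% and 9.09% of the genes tested in the lists, beside 6.42% and 6.99% of all genes. The median log2 change of a list lay between -0.0057 and 0.040 in HT and between -0.029 and 0.057 in HM.

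**Figure D4:**
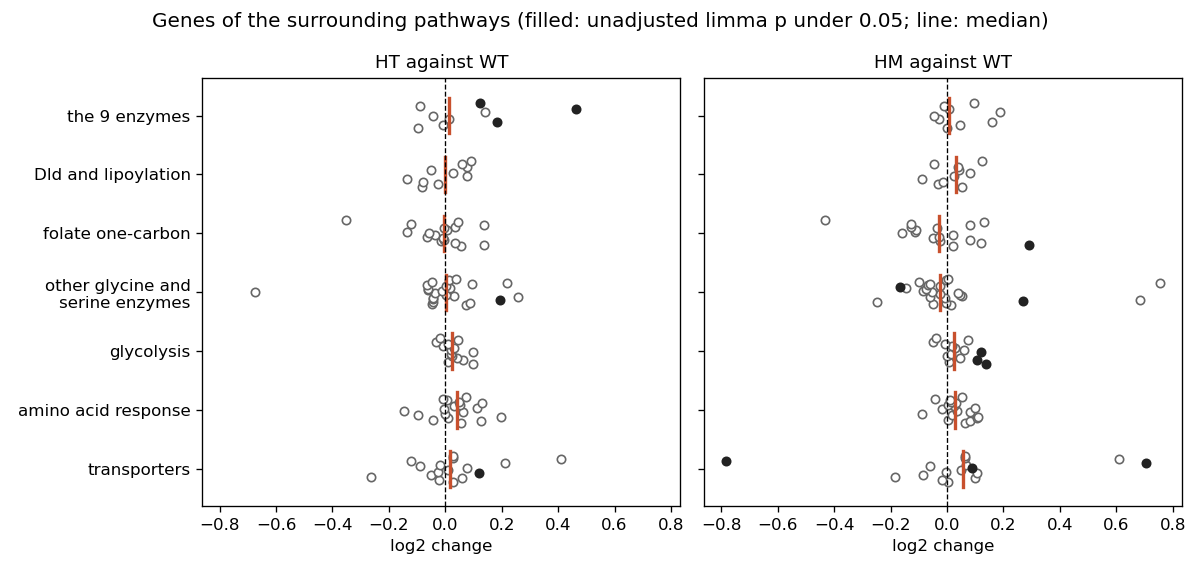
Log2 change (horizontal axis) of the genes of each list in HT against WT and HM against WT, 1 point per gene, filled where the unadjusted limma p is under 0.05, with the median as a line. Medians lie within 0.06 of 0, and the points farthest out in HM include Slc6a20b at -0.78.

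In the list of other glycine and serine enzymes, Ddo had the smallest p in both genotypes. Ddo encodes D-aspartate oxidase, which acts on acidic D-amino acids such as D-aspartate and not on glycine or serine. Ddo stood at 256, 233, 257 and 245 normalized counts in WT, at 274, 284, 289 and 285 in HT and at 322, 258, 328 and 292 in HM. Each of the 8 mutant mice lay above every WT mouse, and HM replicate 2 was the closest to them. The log2 change was 0.19 ± 0.08 (SE) in HT (adjusted p = 0.770, limma with BH) and 0.27 ± 0.09 in HM (adjusted p = 0.655, limma with BH). Pisd, named after its values were seen, was lower in HM than in WT. Its log2 change was -0.17 ± 0.06, with a limma p of 0.0160 unadjusted and 0.664 after BH adjustment.

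In glycolysis, which supplies 3-phosphoglycerate, Hk1, a hexokinase, had the smallest p in both genotypes. Hk1 stood at 11025, 10741, 10495 and 11054 normalized counts in WT, at 11368, 10581, 12208 and 12334 in HT and at 11734, 11902, 11537 and 11900 in HM. HM lay above WT in every mouse, by 0.12 ± 0.03 (SE) on the log2 scale (adjusted p = 0.643, limma with BH), and HT overlapped WT. Aldoa and Eno1, named after their values were seen, also had an unadjusted limma p under 0.05 in HM, with log2 changes of 0.14 and 0.11.

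In folate metabolism, which receives the carbon unit from Shmt1, Shmt2 and the cleavage system, Mtr (methionine synthase) had the smallest p in HT and Aldh1l2, a mitochondrial formyltetrahydrofolate dehydrogenase, in HM. The log2 change of Mtr in HT was 0.14 ± 0.08 (SE), with an adjusted p of 0.837 (limma, BH). Aldh1l2 stood at 171, 136, 150 and 171 normalized counts in WT, at 243, 161, 157 and 143 in HT and at 159, 203, 231 and 180 in HM. Its genotypes overlapped, with HT replicate 1 and HM replicate 3 the highest mice, and its log2 change in HM was 0.29 ± 0.13 (adjusted p = 0.701, limma with BH).

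The lipoylation genes, which make the cofactor of Gcsh, had Iba57 with the smallest p in HT, at a log2 change of -0.14 ± 0.11 (SE), and Oxsm in HM, at 0.12 ± 0.07. Of the amino acid response genes, Asns (asparagine synthetase) had the smallest p in HT, at a log2 change of 0.13 ± 0.06, and Gars (glycyl-tRNA synthetase) in HM, at 0.08 ± 0.05. None of these 4 had an unadjusted limma p under 0.05.

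Of the transporters, Slc32a1, which fills synaptic vesicles with GABA and glycine, had the smallest p in HT, at a log2 change of 0.12 ± 0.05 (adjusted p = 0.772, limma with BH). Slc6a20b, the neighbouring paralog of the deleted gene, had the smallest p in HM, with 31.2, 32.7, 25.5 and 27.1 normalized counts in WT, 30.2, 33.4, 19.4 and 25.3 in HT and 11.1, 15.7, 17.3 and 23.8 in HM. All 4 HM mice lay below all 4 WT mice, and the log2 change was -0.78 ± 0.26 (adjusted p = 0.655, limma with BH). Slc6a20b is close in sequence to Slc6a20a and its counts are low, so its values are uncertain, and how many reads the 2 genes share was not tested. Choroid plexus markers, lower in HM as given above, were likewise not tested for a part in it.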

How the data were processed

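The authors prepared poly-A libraries with the TruSeq RNA Sample Prep Kit v2, sequenced paired ends of 100 bp, quantified them with Salmon 1.1.0 and GC bias correction against GRCm38, summed estimates to genes with tximport and normalized them with DESeq2 1.30.1. The values deposited by the authors are a normalized count signal per gene and mouse, with 12 columns and 0 unused ones. Whole reads could not be recovered from them, so the test planned for normalized values was used and not a count model. Depth before normalization is unknown.

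Genotypes came from the sample labels. Symbols, positions and lengths came from GENCODE M21, which held 19758 of 19775 identifiers. Of 2 identifiers with 1 symbol, the higher was used. The fit was made in R 4.3.3 with limma 3.58.1, on the log2 of each normalized count after a pseudocount of 1 was added, with the prior variance modelled as a trend on the mean. Each comparison used its own 8 mice and every gene whose mean over them reached 10. Adjustment over all genes tested (18004, 18004 and 17986) followed Benjamini and Hochberg (BH). Fold changes on this scale understate those of low genes. The test was also run on simulated data, and the outcome is not given here. Correlations used 100000 permutations, within genotype where centred. Shared sequence was searched with BLAST 2.17.0 (at least 95% identity over 100 bases). Further steps used Python 3.11.15, numpy 2.4.6, pandas 2.3.3, scipy 1.17.1 and matplotlib 3.10.9.

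The members, gene lists and tests were chosen with earlier results of these data known. The text names the 9 enzymes, Slc6a20a, Dld, of each list the genes past the threshold and the gene with the smallest p in HT and in HM against WT, and the gene most alike to each enzyme. Outside this rule, Aldoa, Eno1 and Pisd were named after their values were seen. Ftcd, Tdh, Agxt and Agxt2 were not analysed here. Replicate numbers did not pair the mice. The alternatives tried were a smaller pseudocount (0.1), no filter, a stricter filter (10 or more in each mouse), a joint fit of 12 mice, blocks for replicate or animal number, quantile and upper-quartile scaling, a GC and length correction by loess (span 0.4), no trend in the prior and leaving out each mouse.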

Additional observations from a re-analysis of the deposited data

How the results depend on the processing

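No enzyme passed the adjusted threshold under any alternative, and the smallest adjusted p (limma, BH) of any enzyme was 0.604. Of 27 enzyme changes, 15 kept their sign throughout and 12 did not, and those 12 were at most 0.048 in size as reported, though not under every alternative. With the animal-number block the log2 changes that turned were Gcsh 0.041 in HT against WT, Shmt2 0.046, Amt -0.026, Phgdh 0.096 and Psat1 0.046 in HM against WT, and Psat1 0.015 and Psph -0.057 in HM against HT. With the GC and length correction they were Gcsh 0.020 in HT against WT and Shmt2 0.0086 and Phgdh 0.0016 in HM against WT, and with upper-quartile scaling Amt -0.0014 in HM against WT. Leaving out 1 mouse gave ranges across 0 of -0.042 to 0.035 for Gcsh and -0.067 to 0.063 for Phgdh in HT against WT. In HM against WT they were -0.15 to 0.17 for Shmt1, -0.065 to 0.037 for Shmt2, -0.049 to 0.033 for Amt and -0.11 to 0.026 for Phgdh. In HM against HT they were -0.088 to 0.042 for Gldc, -0.087 to 0.012 for Phgdh, -0.037 to 0.023 for Psat1, -0.020 to 0.11 for Psph and -0.057 to 0.0027 for Srr. The cause was not tested.

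Genes called over the whole table (limma, BH) numbered 1 in HT against WT, 2 in HM against WT and 1 in HM against HT, and leaving out 1 mouse gave 1 to 5, 2 to 3 and 1 to 7. Without a trend in the prior, 0 genes were called in HT against WT, where Slc6a20a was thus no longer called, and 1 in HM against WT. Without a filter 2 were called in HM against HT, and with the animal-number block 3. The replicate block, whose numbers did not pair the mice (0 of 12 same-number pairs had r above 0.1, against 8 of 36 other pairs), gave 1 call in HM against WT and moved no other count. Some mice of different genotypes have animal numbers that start alike. Among such pairs r was 0.176 for WT4 and HT3, 0.143 for WT2 and HM4, 0.119 for HT1 and HM4 and 0.111 for HT2 and HM4. It was -0.171 for WT3 and HT3, and the rest lay between 0.0208 and 0.0967. What these numbers stand for is not stated, and the main fits hold no term for them. The exact permutation test had 1 of 27 enzyme comparisons under 0.05 and 0 after upper-quartile scaling. Pair correlations that turned were Amt with Gcsh (-0.0659 centred, -0.0514 with upper-quartile scaling, 0.0458 as reported), Gldc with Gcsh (-0.599 without 2 mice) and Shmt1 with Shmt2 (-0.173 without 2 mice). Without HT1 and HM3 the correlations with the amino acid response turned to -0.212 for Shmt1, -0.424 for Gldc, -0.0436 for Gcsh and -0.263 for Psph. The animal-number block made the largest move of all alternatives for some enzymes. With it Shmt1 in HM against WT went from 0.0069 to 0.48 and Psph from 0.19 to 0.30, and in HM against HT Shmt1 went from -0.46 to -0.13, Gldc from -0.025 to -0.28 and Srr from -0.031 to -0.17. Other changes moved more when 1 mouse was left out. Gldc in HT against WT went from 0.18 to 0.12 without WT replicate 2 and to 0.20 with the block. With the animal-number block, the enzymes under an unadjusted limma p of 0.05 were Gldc in HT against WT, Psph in HM against WT, and Gldc and Srr in HM against HT. The smallest adjusted p of any enzyme with this block was 0.604 (limma, BH). The share of all genes under 0.05 with this block is not given here, so these enzymes have no background beside them.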

Other observations

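A relation chosen after the values were seen concerns the genes of the amino acid response, such as Asns and Gars. The mean log2 level of 18 such genes, centred per gene, was 0.17 in HT replicate 1 and 0.20 in HM replicate 3 and lay between -0.080 and 0.030 in the other 10 mice. Asns stood at 2709 and 2681 normalized counts in those 2 mice and at 2119 to 2397 in the others. Psph was also highest in these mice, at 505 and 541 normalized counts, and Aldh1l2 likewise, at 243 and 231. Over all 12 mice Psph and the response mean had Pearson r = 0.641 (permutation p = 0.0238) and Spearman rho = 0.294 (permutation p = 0.356), and after BH adjustment over the 9 enzymes the Pearson p was 0.169. Without the 2 mice r was -0.263 (permutation p = 0.454), so the relation rests on them. With values centred within genotype r was 0.677 (permutation p = 0.0808). Phgdh had r = 0.519 (permutation p = 0.0750) and rho = 0.671 (permutation p = 0.0200, adjusted p = 0.18) with the response mean, and r = 0.442 (permutation p = 0.203) without the 2 mice. The other 7 enzymes had r between -0.539 and 0.557, and 0 of the 9 passed after adjustment. The 2 mice are of different genotype, and nothing in the labels sets them apart.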
